A study of Mus musculus with 12 samples.

Results

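SINE B2 loci are the copies of one family of short interspersed elements in the mouse genome, and their RNA was measured in testis extracts and in complexes of the L1 protein ORF1p. Members were all annotated repeat loci of class SINE and family B2. They numbered 129206 of 781935 repeat loci, or 16.5%, and fell into 5 subfamilies of 1528 listed. The annotation held 12770 loci of B2_Mm1a, 14980 of B2_Mm1t and 40623 of B2_Mm2, which are the evolutionarily young B2 subfamilies. It held 39795 loci of B3 and 21038 of B3A, which are the older ones. Beside B2, the SINE class held 148088 loci of the Alu family, to which mouse B1 belongs, and 85399 of the B4 family.

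B2 elements are rodent retrotransposons derived from a tRNA gene. They carry an internal promoter for RNA polymerase III and encode no protein. Their mobilization depends on the enzymes of the autonomous L1 element, whose RNA is bound by L1 ORF1p, an RNA-binding protein that coats L1 RNA in ribonucleoprotein (RNP) particles. Copies of B2 also lie within introns and exons of genes, so that B2 sequence is present in transcripts of RNA polymerase II. Short reads summed over loci do not tell these kinds of RNA apart.

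All libraries came from testes of *Mael*-/- C57BL/6 mice of 3 months of age, in which L1 is derepressed in germ cells, and no wild-type library was analysed. TOTAL was RNA of the clarified testis extract with EDTA, which dissociates ribosomes. INPUT was RNA of sucrose gradient fractions 5 to 8 of that extract, IP was RNA pulled from such pools with beads coupled to an anti-ORF1p antibody, and BO was RNA left on beads that carried no antibody (beads only). Each of the 4 groups had 3 libraries described by the submitters as biological replicates, 12 in all. An adult mutant testis holds somatic and germ cells, and fewer cells of a type cannot be told apart from less RNA per cell in these bulk samples.

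The depth differed between groups. Reads on repeat subfamilies, recovered from the normalized values, numbered 6021800 to 7282171 per library in TOTAL, 3045169 to 3880641 in INPUT, 1712212 to 3512997 in BO and 1384904 to 2003193 in IP. 7SLRNA, the RNA of the signal recognition particle, took 44.9% ± 6.73 (SD, n = 3) of these reads in TOTAL and 1.46% ± 0.258 (SD, n = 3) in IP. Ribosomal RNA repeats took 54.3% of the reads in BO replicate 3 and 3.28% to 3.45% in the other BO libraries. In the authors' group means for TOTAL, the meiotic gene *Sycp1* was at 9433 and the germ line gene *Ddx4* at 2611, while the spermatid genes *Acrv1*, *Tnp1* and *Prm1* were at 11.7, 30.1 and 22.0. The Leydig cell gene *Cyp17a1* was at 29894 and the Sertoli cell gene *Sox9* at 1591. *Mael*, the mutated gene, was at 0.65. Marker levels also differed between the groups compared. In the table that holds both, all 5 germ line and spermatocyte markers were higher in IP than in TOTAL and all 7 spermatid, Sertoli and Leydig cell markers were lower, with *Sycp1* at 71553 and *Cyp17a1* at 4998 in IP. In INPUT and BO, normalized separately, *Sycp1* was at 12256 and 4494 and *Cyp17a1* at 19062 and 1326. The Sertoli cell genes went the other way, with *Sox9* at 1210 and 1855 and *Wt1* at 1948 and 3761. The part of these marker levels in the B2 differences was not tested. These are normalized counts of whole genes, not corrected for length, and show that both germ cells and somatic cells of the testis were present.

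The first question was how the normalized counts of B2 compared between the kinds of sample. Such counts are relative to the other repeats of a library and do not give amounts of RNA. B2_Mm1a had normalized counts of 55375, 39991 and 38201 in TOTAL replicates 1 to 3 and of 20587, 14042 and 14195 in INPUT. It had counts of 8156, 9157 and 8919 in BO and of 15882, 31194 and 22646 in IP. TOTAL was highest and BO lowest, neither overlapped any other group, and the ranges of INPUT and IP overlapped. IP replicate 1, which had the lowest B2_Mm1a count of the IP libraries, had the highest count of L1Md_A, a young L1 subfamily (95645 against 75201 and 56029 in IP replicates 2 and 3).

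B2_Mm1t, also a young subfamily, was at 40049, 32314 and 30538 in TOTAL and at 20904, 15798 and 16049 in INPUT. It was at 9646, 13589 and 13074 in BO and at 16300, 27642 and 21950 in IP. The order of the groups was that of B2_Mm1a, with smaller gaps, and BO again lay below all libraries of the other groups.

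B2_Mm2, the largest young subfamily by number of loci, was at 76928, 67824 and 65143 in TOTAL and at 63588, 52687 and 52947 in INPUT. It was at 38279, 44333 and 44174 in BO and at 36330, 49371 and 45674 in IP. Here IP overlapped BO, and both lay below INPUT and TOTAL.

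The older subfamilies varied much less between groups. B3 had mean normalized counts of 80258 ± 4315 in TOTAL, 89165 ± 2426 in INPUT, 84169 ± 3871 in BO and 68986 ± 4628 in IP (SD, n = 3 each). B3A had means of 35720 ± 1980, 40172 ± 1435, 40974 ± 2186 and 31187 ± 2554 in the same order (SD, n = 3 each). Every IP library was below every library of the other 3 groups for B3, and below all but 1 library for B3A, since IP replicate 3 (33762) exceeded TOTAL replicate 1 (33434).

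**Figure D1:**
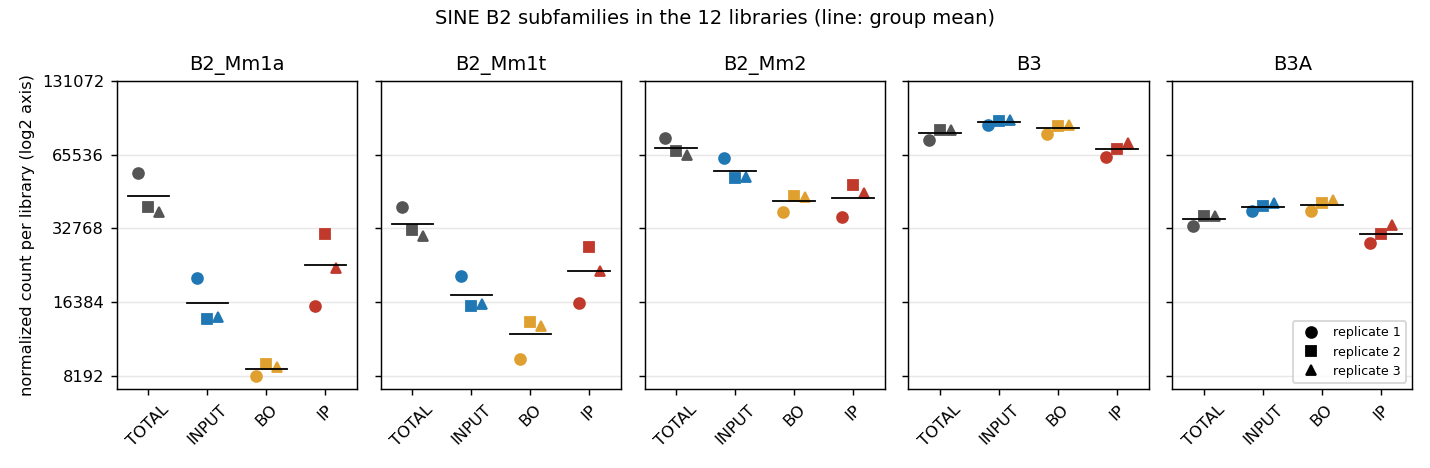
Normalized count (log2 axis) of the 5 B2 subfamilies in each of the 12 libraries; symbols give the replicate number and lines the group mean. B2_Mm1a ranges from 8156 in BO to 55375 in TOTAL, whereas B3 stays between 64190 and 90846.

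The make-up of B2 RNA differed between samples, and this share does not depend on the scaling between libraries. Young subfamilies gave 56.0% ± 4.62 of the recovered B2 reads in TOTAL, 41.0% ± 4.05 in INPUT, 33.5% ± 1.20 in BO and 46.7% ± 4.77 in IP (SD, n = 3 each). The share was 52.8% to 61.3% in TOTAL, 38.6% to 45.7% in INPUT, 32.2% to 34.5% in BO and 42.5% to 51.8% in IP. Only INPUT and IP overlapped. Among the young subfamilies, B2_Mm1a had the largest drop from TOTAL to BO. Its part of B2 reads was 16.7% ± 2.59 in TOTAL, 7.37% ± 1.36 in INPUT, 4.65% ± 0.084 in BO and 12.1% ± 2.61 in IP (SD, n = 3 each). The part of B3 moved the other way, with means of 30.4% in TOTAL, 40.7% in INPUT, 44.7% in BO and 36.7% in IP. B2_Mm2 varied less, with means of 26.4% in TOTAL, 25.6% in INPUT, 22.4% in BO and 23.1% in IP. As a share of all reads on repeat subfamilies, B2 gave 4.67% ± 1.36 in TOTAL, 7.59% ± 0.396 in INPUT, 7.02% ± 2.33 in BO and 9.55% ± 1.44 in IP (SD, n = 3 each), shares that 7SLRNA and ribosomal RNA enter through the denominator.

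**Figure D2:**
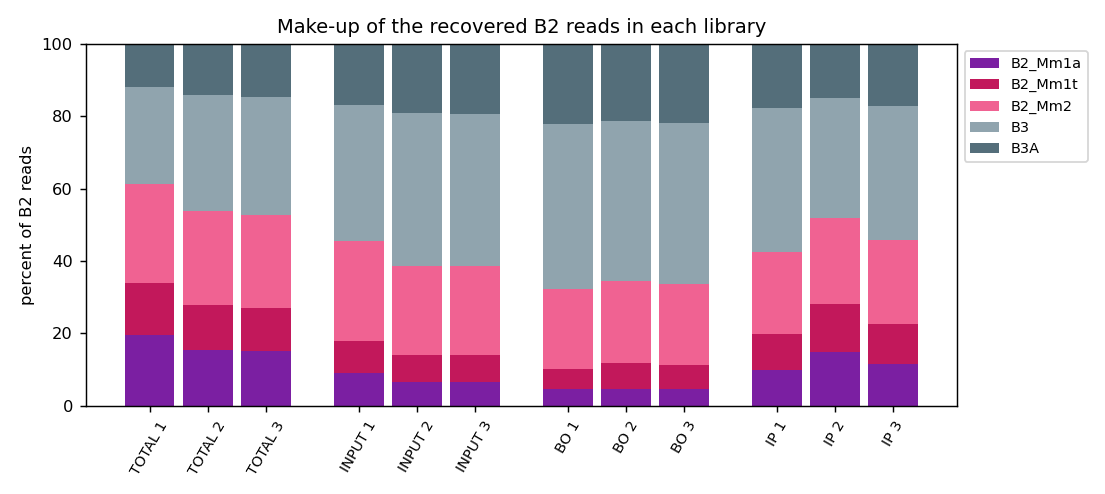
Percent of the recovered B2 reads that fall on each subfamily, 1 stacked bar per library. The young subfamilies (lower 3 colours) make up 52.8% to 61.3% of the bar in TOTAL and 32.2% to 34.5% in BO.

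The second question was how normalized B2 counts differed between the extract and the sucrose fractions that served as INPUT. Differences were tested by fitting limma to log2-transformed normalized counts (pseudocount 1) of all 12 libraries, for 1180 subfamilies averaging 10 or more. Calls needed both an adjusted p (Benjamini-Hochberg) under 0.05 and a log2 fold change past 1 or -1. B2_Mm1a was lower in INPUT than in TOTAL by a log2 fold change of -1.46 (SE 0.23, limma adjusted p = 0.00645), and 0.932% of all subfamilies ranked below it. It was 1 of 4 subfamilies called lower, so that 1 of 5 B2 subfamilies stood beside 0.339% of all subfamilies. No B2 subfamily was called higher (0% of all) by limma, edgeR or DESeq2, and at an unadjusted p under 0.05 the limma fit also gave 0, beside 9.07% of all. BC1_Mm, a small RNA of RNA polymerase III, was among the 4 (log2 fold change -1.69, limma adjusted p = 0.0483).

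B2_Mm1t missed the size threshold, with a log2 fold change of -0.97 between INPUT and TOTAL (SE 0.19, limma adjusted p = 0.0307). B2_Mm2 was at -0.31 (limma adjusted p = 0.221), B3 at 0.15 (limma adjusted p = 0.345) and B3A at 0.17 (limma adjusted p = 0.311), and the 95% interval of B3 ran from -0.018 to 0.32. The 30 SINE subfamilies outside B2 lay between -0.017 and 0.28. These fold changes are relative to the upper quartile of the repeats. Scaled to all reads on repeats, of which 7SLRNA took 44.9% on average in TOTAL and 17.0% to 18.7% in INPUT, the log2 fold change of B2_Mm1a was -0.45 and missed the test, that of B2_Mm1t turned to 0.038 and that of B2_Mm2 to 0.69. B3 (1.16, limma adjusted p = 0.0065) and B3A (1.17, limma adjusted p = 0.00572) were called higher under it, among 639 of all subfamilies. Under that scaling the median subfamily stood at 1.03, and B2_Mm1a was 1.48 below it, against 1.49 below the median in the scaling used throughout.

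Replicate 1 of TOTAL and of INPUT was the highest of its group for all 3 young subfamilies. In the same libraries BC1_Mm was at 32754 against 11639 and 10476 in the other TOTAL libraries, and at 7937 against 3596 and 4132 in INPUT. 4.5SRNA, also an RNA of RNA polymerase III, was at 1755 in TOTAL replicate 1 against 381 and 390. Same-numbered libraries of TOTAL and INPUT deviated together over subfamilies, most clearly replicate 1 (r = 0.63). Replicates 2 and 3 were hardly told apart, since TOTAL replicate 2 had r = 0.34 with INPUT replicate 2 and 0.33 with INPUT replicate 3. The labels state no pairing, so the pairs used here rest on the replicate numbers. In a limma fit of these pairs alone, chosen after seeing the data, B2_Mm2 (adjusted p = 0.00456), B3A (adjusted p = 0.0249) and B2_Mm1t (adjusted p = 2.72e-05) had an adjusted p under 0.05 and B3 did not (adjusted p = 0.0525). No further B2 subfamily passed the size threshold, while 16 of all subfamilies were called lower. The share of all subfamilies under an adjusted p of 0.05 was not counted in that fit, so these p-values do not set B2 apart. A fit of these groups without the pairs called 3 lower, and the pairs in the fit of all 12 libraries called 5, against 4 without them. Within pairs, the log2 ratio of B2_Mm1a to B3 fell by 1.63, 1.64 and 1.56 from TOTAL to INPUT. The drop was thus nearly the same in each pair although the levels differed. The log2 ratio of B2_Mm2 to B3 fell by 0.47, 0.49 and 0.43 in these pairs. Without replicate 1 of INPUT, B2_Mm1t passed the size threshold too (log2 fold change -1.10, limma adjusted p = 0.0324), which made 2 B2 subfamilies lower, among 6 of all subfamilies. Its adjusted p was above 0.05 without INPUT replicate 2 (limma adjusted p = 0.141), without INPUT replicate 3 (limma adjusted p = 0.148) and without any 1 of the TOTAL replicates (limma adjusted p = 0.0631 to 0.0907). With replicate 1 of every group left out together, an alternative added after seeing the data, the counts of B2 subfamilies called were the same in all 5 comparisons, but single values moved. The log2 fold change of B2_Mm1a between IP and INPUT went from 0.48 to 0.91 (limma adjusted p = 0.000918) and that of B2_Mm1t from 0.30 to 0.63 (limma adjusted p = 0.00196), and that of B2_Mm1a between IP and TOTAL went from -0.97 to -0.56 (limma adjusted p = 0.0147).

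The third question was how normalized B2 counts on the beads alone differed from those in INPUT. Between BO and INPUT no B2 subfamily was called in either direction, beside 2.63% of all subfamilies higher and 2.8% lower. edgeR and DESeq2 on the recovered reads gave 0 too, and 3 B2 subfamilies had an unadjusted limma p under 0.05, all with lower values in BO, beside 16.4% of all subfamilies. B2_Mm1a was at a log2 fold change of -0.87 (SE 0.23, limma adjusted p = 0.0118) and B2_Mm2 at -0.41 (SE 0.12, limma adjusted p = 0.0253), both below the size threshold. B2_Mm1t was at -0.54 (limma adjusted p = 0.055), and at -0.62 with edgeR (adjusted p = 0.0261). Scaled to all reads, B2_Mm1a was at -0.82 (limma adjusted p = 0.288). B3 and B3A were at -0.084 and 0.028, with 95% intervals from -0.25 to 0.087 and from -0.15 to 0.20. The values of the young subfamilies thus lay lower on bare beads than in INPUT, and the intervals of the old ones held 0.

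The fourth question was which B2 RNA was higher in IP than in each of the other groups. Against BO, B2_Mm1a was higher in IP by a log2 fold change of 1.36 (SE 0.23, 2.56-fold, limma adjusted p = 0.000641), and 96.5% of all subfamilies lay below it. It was the only B2 subfamily called, 1 of 5, where 5.08% of all subfamilies were called higher and 3.81% lower. B2_Mm1a was also lower in BO than in INPUT (-0.87), and IP over INPUT was 0.48 (limma adjusted p = 0.135). For mRNAs, the paper required enrichment over both BO and INPUT, which B2_Mm1a did not meet here. B2_Mm1t was at 0.84 (SE 0.19, limma adjusted p = 0.00517) and passed the p threshold only. The groups did not overlap for either. B2_Mm2 was at 0.043, with a 95% interval from -0.23 to 0.31.

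B3 was at -0.29 (SE 0.08, limma adjusted p = 0.013) and B3A at -0.40 (SE 0.08, limma adjusted p = 0.00225) between IP and BO, neither past the size threshold. The adjusted p of B3 was above 0.05 with edgeR (adjusted p = 0.172) and DESeq2 (adjusted p = 0.0644). Scaling to all reads put both above 0, at 0.21 and 0.10, and moved the median of all subfamilies from -0.12 to 0.36. B3 lay 0.16 below that median before and 0.15 below it after, and B3A 0.27 and 0.26. L1Md_A, whose RNA ORF1p is known to bind, was at 2.32 in the same comparison (SE 0.20, limma adjusted p = 5.61e-06). B2_Mm1t was called as well, at 1.34, under scaling to all reads, at 1.003 under scaling to all reads but 7SLRNA and ribosomal RNA, and at 1.04 without IP replicate 1, the IP library with the lowest values of the young subfamilies.

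Against INPUT, the material that went onto the beads, no B2 subfamily was called, beside 3.22% of all subfamilies higher and 2.88% lower. edgeR and DESeq2 gave 0 as well, and 3 B2 subfamilies had an unadjusted limma p under 0.05, all with lower values in IP, beside 23.4% of all subfamilies. At that unadjusted p, edgeR gave 1 B2 subfamily higher in IP and DESeq2 2, beside 18.1% and 19.3% of all subfamilies. Each also gave 3 lower, beside 20.3% and 17.2%. B2_Mm1a was at a log2 fold change of 0.48 (SE 0.23, limma adjusted p = 0.135) with a 95% interval from -0.0082 to 0.98. B2_Mm1t was at 0.30 (limma adjusted p = 0.281) with an interval from -0.12 to 0.72. It was at 0.12 without IP replicate 2 and at 0.50 without IP replicate 1. B2_Mm2, B3 and B3A were all at -0.37 (limma adjusted p = 0.0426, 0.00414 and 0.00504), and scaling to all reads put them at 0.17 to 0.18 while it moved the median of all subfamilies from -0.064 to 0.48. Relative to that median, they were at -0.31, -0.31 and -0.30 before and at -0.30 each after. The same scaling put B2_Mm1a at 1.03 (limma adjusted p = 0.0521) and B2_Mm1t at 0.85 (limma adjusted p = 0.101), which was 0.55 and 0.37 above the median, against 0.55 and 0.36 before. The adjusted p of B2_Mm2 was above 0.05 with edgeR (adjusted p = 0.0576). So it was when a library of IP or INPUT was left out (limma adjusted p = 0.0586 to 0.157), except IP replicate 2 (limma adjusted p = 0.0312). Leaving out any replicate in turn called no B2 subfamily in this comparison, but the value of B2_Mm1a ranged from 0.24 without IP replicate 2 (limma adjusted p = 0.446) to 0.73 without IP replicate 1 (limma adjusted p = 0.027). Its adjusted p was also under 0.05 with DESeq2 (0.59, adjusted p = 0.022) and when libraries were scaled to all reads but 7SLRNA and ribosomal RNA (0.62, limma adjusted p = 0.0482).

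Against TOTAL no B2 subfamily was called either, beside 2.88% of all subfamilies higher and 3.47% lower. edgeR and DESeq2 gave 0 as well, and all 5 B2 subfamilies had lower values in IP at an unadjusted limma p under 0.05 (4 of 5 with edgeR or DESeq2), beside 20.8% of all subfamilies in the limma fit. B2_Mm1a was at -0.97 (SE 0.23, limma adjusted p = 0.0095), B2_Mm1t at -0.67 (SE 0.19, limma adjusted p = 0.0311) and B2_Mm2 at -0.68 (SE 0.12, limma adjusted p = 0.00222), and scaling to all reads put them at 0.58, 0.88 and 0.87. B3 was at -0.22 (limma adjusted p = 0.0641) and B3A at -0.20 (limma adjusted p = 0.1). With a replicate block their limma adjusted p was 0.00608 and 0.0113. Scaling to all reads put them at 1.33 and 1.35 and called both higher, among 1032 of all subfamilies. Under that scaling the median subfamily stood at 1.48, and B2_Mm1a lay 0.91 below it, against 0.92 below it otherwise. B2_Mm1a passed the size threshold, as the only B2 subfamily, without IP replicate 2 (-1.21), without TOTAL replicate 2 (-1.04) and without TOTAL replicate 3 (-1.07). It was at -0.72 without IP replicate 1 and at -0.80 without TOTAL replicate 1. The adjusted p of B2_Mm1t was above 0.05 in a fit of the 2 groups only (limma adjusted p = 0.0558). So it was without IP replicate 1 or 3, or TOTAL replicate 1 or 2 (limma adjusted p = 0.0569 to 0.12). Scaled to all reads but 7SLRNA and ribosomal RNA, B2_Mm1a was at -0.47 (limma adjusted p = 0.0795), B2_Mm1t at -0.16 (limma adjusted p = 0.477) and B2_Mm2 at -0.18 (limma adjusted p = 0.266).

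**Figure D3:**
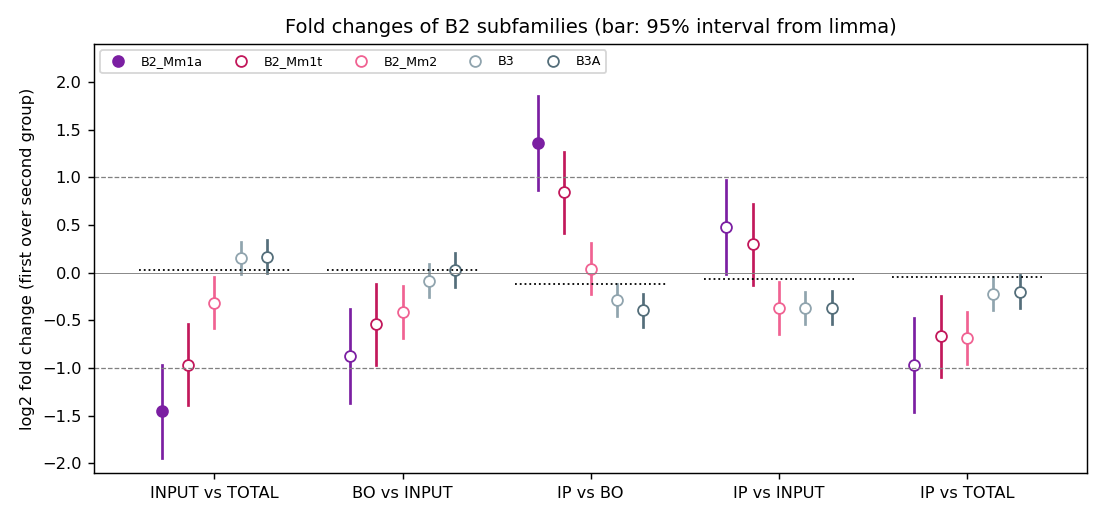
Log2 fold changes of the 5 B2 subfamilies in 5 comparisons, with 95% intervals from limma; filled symbols are called, dashed lines mark the size threshold and dotted lines the median of all subfamilies. B2_Mm1a is called in INPUT vs TOTAL (-1.46) and IP vs BO (1.36); under scaling to all reads, which moves the median of all subfamilies too, every B2 value of IP vs TOTAL changes sign, as do B3 and B3A in IP vs BO, B2_Mm2, B3 and B3A in IP vs INPUT, and B2_Mm1t and B2_Mm2 in INPUT vs TOTAL.

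Ratios within a library remove the scaling altogether. The log2 ratio of B2_Mm1a to B3 was -0.44, -1.05 and -1.12 in TOTAL, -2.07, -2.68 and -2.68 in INPUT, -3.29, -3.23 and -3.29 in BO, and -2.01, -1.15 and -1.70 in IP. The groups followed the order TOTAL, IP, INPUT, BO without overlap. BO was the tightest group, at -3.27 ± 0.035, and IP the widest, at -1.62 ± 0.436 (SD, n = 3 each).

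The ratio was higher in IP than in BO by 1.65 and than in INPUT by 0.86, and lower in IP than in TOTAL by 0.75 and in INPUT than in TOTAL by 1.61. Each of these differences gave an exact two-sided permutation p = 0.1, the smallest that 3 libraries against 3 allow. In a limma fit of the ratio of every subfamily to B3, chosen after seeing the data, the adjusted p was 0.00111 for IP against BO, 0.0244 for IP against INPUT, 0.0584 for IP against TOTAL and 0.0309 for INPUT against TOTAL. The same fit passed an adjusted p of 0.05 for 28.2%, 36.6%, 22.9% and 0.848% of all 1179 subfamilies in these 4 comparisons.

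The other young subfamilies followed in part. The ratio of B2_Mm1t to B3 was higher in IP than in BO by 1.13 (limma adjusted p = 0.00332) and than in INPUT by 0.67 (limma adjusted p = 0.031), and lower in INPUT than in TOTAL by 1.12 (limma adjusted p = 0.0428). Between IP and TOTAL it differed by -0.45, the groups overlapped, and the test was missed (limma adjusted p = 0.155, exact permutation p = 0.3). The ratio of B2_Mm2 to B3 was -0.67 in both IP and INPUT, a difference of 0.00048 (exact permutation p = 1). It was at 0.33 between IP and BO (limma adjusted p = 0.0984) and at -0.47 both between IP and TOTAL (limma adjusted p = 0.0368) and between INPUT and TOTAL (limma adjusted p = 0.126). That fit did not use the pairs of TOTAL and INPUT, within which this ratio fell by 0.47, 0.49 and 0.43. The ratio of B3A to B3 was nearly fixed, from -1.17 to -1.12 in TOTAL, INPUT and IP libraries and from -1.05 to -1.02 in BO.

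**Figure D4:**
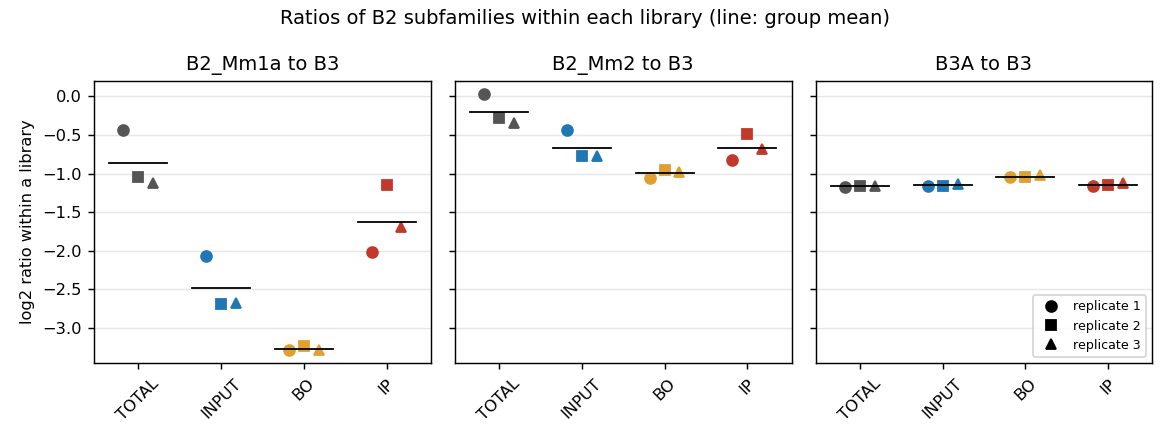
Log2 ratio of B2_Mm1a, B2_Mm2 and B3A to B3 within each library; lines are group means and symbols replicate numbers. The ratio of B2_Mm1a to B3 lies at -0.87, -2.48, -3.27 and -1.62 on average in TOTAL, INPUT, BO and IP, while that of B3A to B3 stays between -1.17 and -1.02.

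B2_Mm1a was also set beside other references. Its log2 ratio to B1_Mm, a young subfamily of the mouse Alu family, was 1.60 ± 0.242 in TOTAL, 0.16 ± 0.305 in INPUT, -0.42 ± 0.032 in BO and 1.16 ± 0.465 in IP (SD, n = 3 each). The limma fit of ratios to B1_Mm, also chosen after seeing the data, gave a difference of 1.58 between IP and BO (adjusted p = 0.00086, beside 26.8% of all subfamilies past the threshold). It gave 1.004 between IP and INPUT (adjusted p = 0.00493, beside 52.1%). Between IP and TOTAL it gave -0.43 (adjusted p = 0.131, beside 56.7%), and there the groups overlapped (exact permutation p = 0.3). Its log2 ratio to L1Md_A was 1.07, 1.05 and 1.06 in TOTAL replicates 1 to 3, nearly the same value in each. That ratio was -0.39 ± 0.050 in INPUT, -0.76 ± 0.158 in BO and -1.72 ± 0.752 in IP (SD, n = 3 each). Relative to L1Md_A, B2_Mm1a was thus lowest in IP, and the groups did not overlap (exact permutation p = 0.1 in each comparison, the smallest possible).

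Other SINE families showed no subfamily called higher in IP. Of the 30 SINE subfamilies outside B2, 0 were higher than in BO by limma, edgeR or DESeq2, and 0 were higher even at an unadjusted p under 0.05, beside 15% of all subfamilies with limma. At that p 25 of the 30 had lower values in IP with limma, 12 with edgeR and 16 with DESeq2, beside 28.8%, 20% and 20.4% of all subfamilies. Of the 16 Alu family subfamilies 1 was called lower, a call that neither edgeR nor DESeq2 made. An adjusted limma p under 0.05, without regard to size, was reached by 13 of 16 Alu family subfamilies, 2 of 4 of the B4 family, 3 of 4 of the ID family, 1 of 4 of the MIR family, 1 of 2 of the Deu family and 4 of 5 of B2, beside 11.3% of all subfamilies higher and 23.2% lower.

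The median log2 fold change between IP and BO was -0.28 in the Alu, -0.26 in the B4, -0.29 in the ID and -0.10 in the MIR family, and -0.12 over all 1180 subfamilies. Named members were B1_Mm at -0.22, B4A at -0.17, ID_B1 at -0.26, RSINE1 at -0.28 and MIR at -0.23, beside the -0.29 of B3. B2_Mm1a was the only 1 of the 35 SINE subfamilies called higher in IP than in BO by limma, and 0 were called higher by limma, edgeR or DESeq2 against INPUT or TOTAL. Scaled to all reads, the limma fit called 1032 of the 1180 subfamilies higher in IP than in TOTAL, B3 (1.33) and B3A (1.35) among them, and the median of all subfamilies was at 1.48. BC1_Mm was at -0.25 (SE 0.37, limma adjusted p = 0.643) between IP and BO. 7SLRNA was at 4.38 (SE 0.85, limma adjusted p = 0.00176), the highest of all 1180 subfamilies, with normalized counts of 196 to 4905 in BO and of 22706 to 32328 in IP. Against INPUT it was at -4.19 (limma adjusted p = 0.00342).

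Single loci were next examined in the authors' group means. These give 1 mean per group and no value per library, so locus values carry no replicate error and no test. Of the 129206 B2 loci, 11.9% were listed at 0 in all 4 groups and 16.1% above 0 in all of them. For B2_Mm1a, 65.5% of loci were above 0 in TOTAL, 42.7% in INPUT, 20.3% in BO and 50.1% in IP. For B3 the shares were 56.8%, 57.1%, 41.6% and 50.5%. Over all repeat loci they were 50.8%, 50.4%, 36.4% and 46.9%. More loci were thus above 0 in IP than in BO for B2_Mm1a, for B3 and for repeats in general. Between IP and INPUT, the share was higher in IP for B2_Mm1a and lower for B3 and for all repeat loci.

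A locus was counted when its mean was at least 10 in either group and its means differed by more than 2-fold. Between IP and BO, 1152 B2 loci reached the minimum, of which 204 (17.7%) were higher and 734 (63.7%) lower in IP, beside 19.1% and 56.7% of all 9619 repeat loci at the minimum. Of 66 B2_Mm1a loci 43 (65.2%) were higher, of 73 B2_Mm1t loci 39 (53.4%), of 243 B2_Mm2 loci 52 (21.4%), of 520 B3 loci 47 (9.04%) and of 250 B3A loci 23 (9.2%). The Alu and B4 families gave 10.3% and 8.97%. A locus that reaches the minimum in 1 group alone tends to be higher in that group, which was IP for 45 of the 66 B2_Mm1a loci and BO for 370 of the 520 B3 loci, so these shares describe the loci that passed and do not compare the subfamilies. In an alternative added after seeing the data, loci were chosen instead by a mean of at least 10 in INPUT, which is outside this comparison. Then 28 of 68 B2_Mm1a loci (41.2%) were higher and 27.9% lower, 30.6% of 62 B2_Mm1t loci were higher and 33.9% lower, and 10.6% of 549 B3 loci were higher and 49.2% lower, beside 13.4% and 44.6% of all repeat loci so chosen. Of 1192 B2 loci so chosen 167 were higher and 547 (45.9%) lower, near the shares of all repeat loci. With a minimum of 5 in either group, 21.5% of B2 loci were higher beside 19.3% of all repeat loci, so whether B2 lay above or below the repeats in general depended on the minimum. The median of the repeat loci at the minimum, with means above 0 in both groups, was a log2 ratio of -1.30. That median depends on the same minimum, which 5286 repeat loci had reached in BO alone and 1848 in IP alone. Centred on that median, 27.7% of the B2 loci were higher and 30.1% lower, beside 32.6% and 26.3% of all repeat loci.

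Between IP and INPUT, 321 of 1546 B2 loci (20.8%) were higher and 757 (49.0%) lower, beside 26.0% and 40.5% of 11114 repeat loci. Centred on the median of the repeat loci at the minimum (-0.53), 27.6% were higher and 36.8% lower, beside 34.2% and 29.1%. Of 139 B2_Mm1a loci 67 (48.2%) were higher, and of 131 B2_Mm1t loci 64 (48.9%), and of 630 B3 loci 71 (11.3%). Of these, 71 B2_Mm1a and 69 B2_Mm1t loci had reached the minimum in IP alone and 390 B3 loci in INPUT alone, so these shares do not compare the subfamilies. Chosen by TOTAL, outside the comparison, 26.9% of 279 B2_Mm1a loci were higher and 25.8% lower, and 7.62% of 328 B3 loci were higher and 46.0% lower, beside 12.8% and 38.1% of all repeat loci so chosen. Over all B2 loci so chosen 16.9% were higher and 35.2% lower, so that B2 lay on the other side of the repeats in general than with the minimum in either group. Between IP and TOTAL, 237 of 1659 B2 loci (14.3%) were higher and 892 (53.8%) lower, beside 29.2% and 31.7% of 9738 repeat loci. Of the B2 loci, 959 had passed the minimum in TOTAL alone and 281 in IP alone, beside 3413 and 2983 of the repeat loci. These shares thus describe the loci that passed and do not compare B2 with the repeats in general. Of 314 B2_Mm1a loci 219 (69.7%) were lower and of 236 B2_Mm1t loci 146 (61.9%), against 153 of 422 B3 loci (36.3%), but 221 of those B2_Mm1a loci had passed through TOTAL alone. Chosen by INPUT, 58.8% of 68 B2_Mm1a loci, 56.5% of 62 B2_Mm1t loci and 42.6% of 549 B3 loci were lower, beside 37.0% of all repeat loci so chosen. Over all 1192 B2 loci so chosen 6.04% were higher and 45.6% lower, beside 10.0% and 37.0% of all repeat loci. Loci of a young subfamily are nearly identical copies, and the methods describe a reassignment of ambiguous reads for repeats without saying whether it was used for these locus tables, so values of single young loci are uncertain.

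**Figure D5:**
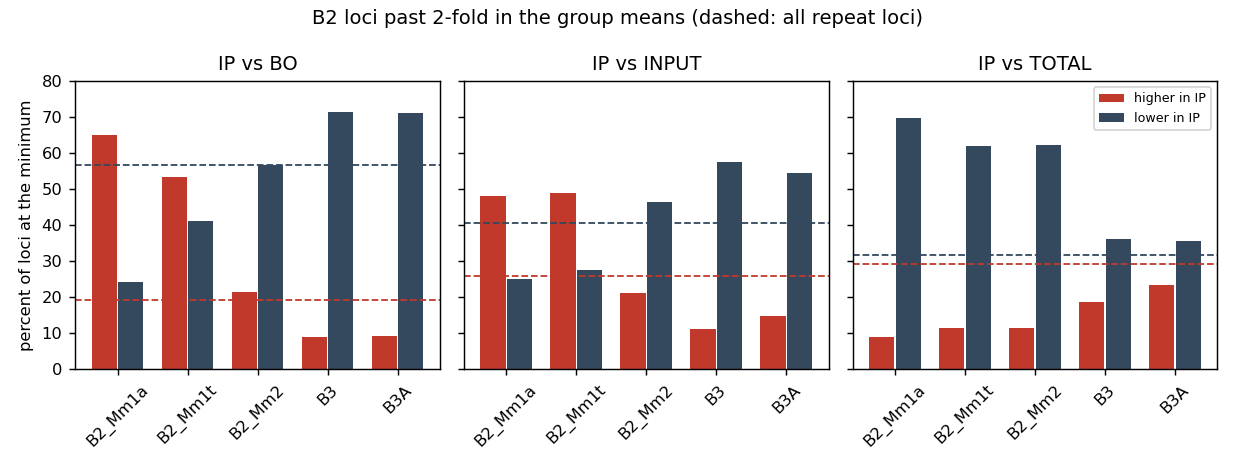
Percent of B2 loci, among those with a mean of at least 10 in either group, whose group means differ by more than 2-fold between IP and each other group; dashed lines are the shares over all repeat loci. Against BO, 65.2% of B2_Mm1a loci and 9.04% of B3 loci are higher in IP, beside 19.1% of all repeat loci, with 45 of the 66 B2_Mm1a loci passing the minimum in IP alone. Centred on the median of the repeat loci at that minimum, which depends on the minimum too, the B2 family gives 27.7% higher and 30.1% lower against BO. All repeat loci give 32.6% and 26.3%.

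Most B2 signal lay on loci with low means. Between IP and TOTAL, 12456 of 12770 B2_Mm1a loci had a mean below 10 in both groups, and held 63.3% of the summed TOTAL means and 74.9% of the summed IP means. It took 659 loci to reach 50% of the B2_Mm1a sum in TOTAL, 629 in INPUT, 291 in BO and 753 in IP. The highest locus held 1.63% of the B2_Mm1a sum in TOTAL, 0.947% in INPUT, 3.81% in BO and 0.916% in IP, and the 10 highest held 16.0% in BO against 4.12% in IP.

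The log2 ratio of the summed means, IP over BO, was 1.03 for B2_Mm1a, 0.89 for B2_Mm1t, -0.056 for B2_Mm2, -0.64 for B3 and -0.83 for B3A, and -0.52 for all repeat loci. Over the loci below 10 in both groups alone, it was 1.22 for B2_Mm1a, 0.95 for B2_Mm1t, 0.13 for B2_Mm2, -0.55 for B3 and -0.57 for B3A, and -0.33 for all repeat loci. The loci with low means alone gave the same order of subfamilies as all loci. Over INPUT, the summed ratio of all loci was 0.49 for B2_Mm1a and -0.40 for B3, beside -0.27 for all repeat loci. Over TOTAL it was -0.92 and -0.23. Over the loci below 10 in both IP and TOTAL it was -0.67 for B2_Mm1a, -0.31 for B3 and -0.17 for all repeat loci. The sum over all repeat loci is not used there, because 1 locus held 33.5% of it in TOTAL.

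Individual copies with the highest means are given next. The B2_Mm1a locus with the highest TOTAL mean, B2_Mm1a_11874, was at 308.5 in TOTAL, 68.3 in INPUT, 1.20 in BO and 7.28 in IP. The locus with the highest IP mean, B2_Mm1a_2224, was at 43.1 in TOTAL, 17.8 in INPUT, 2.20 in BO and 91.8 in IP. The second in IP, B2_Mm1a_16532, was at 106.7, 17.1, 1.14 and 58.8 in the same order. Values of IP are those of the table normalized with TOTAL, and the BO and INPUT values come from tables normalized separately. The log2 ratio of IP over TOTAL was thus -5.40 for B2_Mm1a_11874 and 1.09 for B2_Mm1a_2224, on either side of the -0.92 of the subfamily's summed means. Picking copies by a high TOTAL or a high IP mean favours such a split, so it does not show that they depart from the subfamily.

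Among the other young copies, B2_Mm1t_9659 was at 25.9 in TOTAL, 17.1 in INPUT, 13.1 in BO and 143.6 in IP. B2_Mm2_79785 was at 69.3, 36.7, 24.6 and 414.7 in the same order. B2_Mm2_9203 was at 192.3 in TOTAL, 323.0 in INPUT, 964.1 in BO and 271.7 in IP, highest on bare beads. Old copies included the same kinds of pattern. B3_104664 was at 50.9 in TOTAL, 85.4 in INPUT, 52.7 in BO and 491.8 in IP. B3A_65673 was at 419.3, 704.9, 2090 and 934.1, and held 9.95% of all B3A signal in BO.

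Of the 15 loci with the highest TOTAL means, 3 per subfamily, 10 were lower in IP than in TOTAL by more than 2-fold and 1 was higher. Of the 15 with the highest IP means, 10 were higher in IP than in TOTAL by more than 2-fold and 1 was lower. A locus picked for a high value in one group tends to be higher there, so these counts describe the named copies only. The tables give no value per library for a locus, so whether 1 library made such a mean was not tested. They also hold no coordinates, and neither the genes around these copies nor their sequences are given here.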

How the data were processed

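RNA-seq was analysed from testes of *Mael*-/- mice in 4 groups of 3 libraries (TOTAL, INPUT, BO and IP), grouped by the sample labels. Libraries were depleted of rRNA and stranded. The authors aligned reads against mm10 with STAR 2.6.0c, used Telescope to place ambiguous reads, added up counts by repeat subfamily and applied EBSeq normalization. Deposited signal values are thus normalized counts, 1 per subfamily and library. Their upper quartile is equal in all libraries, and 100% of values were whole multiples of 1 step per library (tolerance 0.1 read), from which reads were recovered. For single loci, the deposited signal is the mean per group of counts normalized with DESeq2 1.24.0, separately in each of 3 tables. The authors' log2 fold changes, their Wald score and the authors' p-value columns in these tables hold their own comparisons and were not used.

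The 1180 subfamilies averaging 10 or more in the 12 libraries were fitted with limma 3.58.1 in R 4.3.3 on log2 of the normalized count plus 1, a scale that understates changes of low values. Calls required an adjusted p under 0.05 and a log2 fold change past 1 or -1. Ratios within a library were compared by exact two-sided permutation. Alternatives were other pseudocounts, filters and scalings, fits of 2 groups, a replicate block, edgeR 4.0.16 and DESeq2 1.42.0 on recovered reads, and each replicate left out. Tested on simulated counts for IP against BO with 200 of 1180 subfamilies changed, limma called 97% of these and 0 unchanged ones. Those figures hold for that run only. The share called at the spread and the B2 fold changes of these libraries was not tested. Same-numbered libraries of TOTAL and INPUT deviated together (r = 0.32 to 0.63 over subfamilies). The highest r was at the own number for 3 of 3 TOTAL and 2 of 3 INPUT libraries, but replicates 2 and 3 were hardly told apart. Between INPUT and BO r was 0.062 to 0.56, highest at the own number for 2 of 3 libraries of each. Same-numbered libraries of IP did not pair with any group. Subfamilies named were all of B2, with SINE and small RNA references, and loci the 3 with the highest TOTAL and IP means in each subfamily. The members and lists were chosen with earlier results of these data known. The submitters call the libraries of a group biological replicates but the labels name no animals, so p-values measure the spread between these libraries.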

Additional observations from a re-analysis of the deposited data

How the results depend on the processing

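Of 455 refits of single fold changes of B2 subfamilies, 424 kept their direction and call and 21 changed sign. With sign changes included, 11 became called and 1 lost its call. The adjusted p alone moved below 0.05 in 24 refits and above it in 44. Scaling to all reads on repeats shifted the median of all subfamilies, to 0.36, 0.48 and 1.48 for IP against BO, INPUT and TOTAL and to 1.03 for INPUT against TOTAL, and moved no B2 value by more than 0.018 relative to that median. It gave 2 B2 subfamilies higher in IP than in BO, 2 higher in IP than in TOTAL (B3 at 1.33 and B3A at 1.35), and 2 higher (B3 at 1.16, B3A at 1.17) and 0 lower in INPUT than in TOTAL. The signs that it turned were those of B3 (0.21) and B3A (0.10) against BO, of B2_Mm2 (0.17), B3 (0.17) and B3A (0.18) against INPUT, of B2_Mm1a (0.58), B2_Mm1t (0.88), B2_Mm2 (0.87), B3 and B3A against TOTAL, and of B2_Mm1t (0.038) and B2_Mm2 (0.69) between INPUT and TOTAL. Scaling to all reads without 7SLRNA and rRNA gave 2 B2 subfamilies higher in IP than in BO, among 72 of all subfamilies (60 otherwise). It turned B3 (0.28) and B3A (0.31) between IP and TOTAL and B2_Mm2 (0.052) between INPUT and TOTAL. B3A between BO and INPUT turned to -0.014 with median-of-ratios scaling, to -0.051 with edgeR, to -0.016 with DESeq2 and to -0.0048 without BO replicate 3 (0.071 without BO replicate 1). B2_Mm2 between IP and BO turned to -0.050 without IP replicate 2 and to -0.027 without BO replicate 1.

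With each replicate left out, the B2 subfamilies called numbered 1 to 2 higher in IP than in BO, 0 to 1 lower in IP than in TOTAL and 1 to 2 lower in INPUT than in TOTAL. Over all subfamilies the calls numbered 55 to 68, 34 to 40 and 2 to 6 in the same order. The fold change of B2_Mm1a between IP and BO ranged from 1.12 to 1.61, and its limma, edgeR or DESeq2 adjusted p over all alternatives from 1.63e-11 to 0.0039. The ratio of B2_Mm1a to B3 tested with limma, added after seeing the data, passed the threshold for IP against BO (1.65) and INPUT (0.86) and for INPUT against TOTAL (-1.61), where the exact test cannot. Centring the locus ratios on the median of the repeat loci at the minimum moved the share of B2 loci past 2-fold between IP and BO to 27.7% higher and 30.1% lower. The shares of all repeat loci were 32.6% and 26.3%. With loci chosen by a group outside the comparison, added after seeing the data, the share higher in IP than in TOTAL was 6.04%, beside 10.0% of all repeat loci. With a replicate block, the limma adjusted p of B2_Mm1a between INPUT and TOTAL was 0.00858, 2.56e-06 in a paired fit of these groups only (added after seeing the data), and the block changed no B2 call. Over all subfamilies, 4 were lower in INPUT than in TOTAL by limma, 6 by edgeR and 9 by DESeq2. Scaling to all reads gave 124 higher in IP than in BO (60 otherwise), 1032 higher in IP than in TOTAL (34 otherwise) and 639 higher in INPUT than in TOTAL (0 otherwise). Locus values have no replicates, so their error is unknown.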
